A study of Mus musculus with 21 samples.

Results

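The genes described here are those named after potassium channels, voltage-gated sodium channels and pacemaker channels, with their regulatory subunits and a regulator. They were measured by RNA sequencing of mouse hearts. They were chosen by symbol alone. Included were every symbol beginning with Kcn, every Scn symbol ending in a or b after its number, and the 4 Hcn symbols. The rule itself used no measured values, but it was set with earlier results of these data known. The rule took 117 of the 56691 genes in the table, of which 99 carry a Kcn symbol, 14 an Scn symbol and 4 an Hcn symbol. The Kcn symbols include a few antisense or overlapping transcripts named after a channel, such as *Kcnq1ot1*, which encode no channel or subunit. These were too low to be tested and are counted among the channel genes below. To compare the cardiac response to doxorubicin (DOX), an anthracycline used against tumors, with and without a tumor, the study sequenced 21 heart libraries in 4 groups. The Control group (5 libraries) came from mice without a tumor that were given normal saline, and the DOX group (5 libraries) from mice without a tumor that received weekly intraperitoneal DOX. The Tb group (6 libraries) came from tumor-bearing mice given saline, and the Tb-DOX group (5 libraries) from tumor-bearing mice given the same DOX course. The tumors arose from subcutaneously injected cells of 4T1, a mouse breast cancer line, so each tumor-bearing group carries 1 tumor model. The labels give 4T-1 as the source of every library, also of those without a tumor, and the heart is named as the tissue in the study's text. Strain, sex and age are not given in the sources used here, nor is it stated that each library is a separate animal, so the p-values measure the spread between these libraries, which may be technical in part.

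Ion channels set the shape of the cardiac action potential. Sodium channels carry the fast inward current of the upstroke, transient outward and delayed rectifier potassium channels repolarize the cell, inward rectifier and two-pore potassium channels hold the resting potential, and pacemaker channels carry the inward current that drives automaticity in the sinus node. In the mouse ventricle the transient outward current, carried by channels of the Kcnd genes with their partner KChIP2, dominates the early repolarization. Accessory subunits do not form a pore but change how many channels reach the membrane and how fast they open and close.

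The 3 upstream regions stand here for the genes that the results turn on: *Scn4b* and *Kcnd2*, the sodium channel beta subunit and the transient outward alpha subunit that were lower with DOX, and *Kcnj12*, an inward rectifier that was higher with DOX. Each is the 250 bases before the annotated start in RefSeq, read on the GRCm38.p6 assembly, 5′ to 3′ on the strand of the gene. The gene spans given below are on another build. Whether each RefSeq start is the first base of that span, or lies within it, was not tested. Capitals mark the match of a motif searched on both strands: AGAACA (glucocorticoid receptor motif, found as its reverse complement) in *Scn4b*, GGGCGG (GC box) in *Kcnd2* and CANNTG (E-box) in *Kcnj12*.
Scn4b promoter, GRCm38.p6 chr9:45138374-45138623, plus strand: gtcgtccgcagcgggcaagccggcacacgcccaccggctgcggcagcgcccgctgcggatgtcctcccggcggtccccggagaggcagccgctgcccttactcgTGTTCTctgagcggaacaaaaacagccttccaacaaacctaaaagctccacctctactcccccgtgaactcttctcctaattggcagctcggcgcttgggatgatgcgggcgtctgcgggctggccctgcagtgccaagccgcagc
Kcnd2 promoter, GRCm38.p6 chr6:21215096-21215345, plus strand: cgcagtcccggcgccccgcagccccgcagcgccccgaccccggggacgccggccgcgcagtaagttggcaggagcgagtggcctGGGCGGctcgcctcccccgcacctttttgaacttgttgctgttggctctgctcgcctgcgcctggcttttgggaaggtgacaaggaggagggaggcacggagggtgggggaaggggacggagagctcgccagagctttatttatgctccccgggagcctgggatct
Kcnj12 promoter, GRCm38.p6 chr11:61065554-61065803, plus strand: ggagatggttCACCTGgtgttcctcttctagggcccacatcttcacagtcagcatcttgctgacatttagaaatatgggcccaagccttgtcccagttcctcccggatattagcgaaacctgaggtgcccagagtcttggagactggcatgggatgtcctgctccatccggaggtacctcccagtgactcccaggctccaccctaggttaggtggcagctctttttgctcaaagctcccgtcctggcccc

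The *Scn4b* region holds 23 CG dinucleotides and the *Kcnd2* region 22, against 4 in the *Kcnj12* region and a median of 6 over the 32851 promoters of the table. The letters AGAACA stood in 16.1% of all promoters and in 1 of the 19 tested channel genes with a single promoter entry, the GC box GGGCGG in 32.7% and 8 of 19, and the E-box CANNTG in 66.2% and 14 of 19. The letters TATAAA were in none of the 19 windows (12.4% of all promoters), as were TCACACC, a T-box motif (3.33% of all promoters), while GATAA was in those of *Kcnj2* and *Scn7a* (22.6% of all promoters). These matches describe the letters of the windows only. Of the 117 channel genes, 84 had an entry in this table and 67 had exactly 1.

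Library totals ran from 13521200 to 18601445 counts, and correlations of log2 CPM within groups from 0.918 to 0.987. Tb replicate 5 stood apart, with a mean correlation of 0.934 with the other Tb libraries against 0.963 to 0.984 for every other library within its group. DOX replicate 4 lay outside the other DOX libraries for *Kcna5*, and also for *Cd3e*, a T cell receptor gene, at 66.7 FPKM against 0.98 to 3.49 in the other DOX libraries. Tb replicate 5 was also highest of the Tb libraries for *Cd3e*, at 9.74 FPKM against 0.22 to 0.45 in the others. The other 7 T cell markers of the list were at 0.00 to 0.45 FPKM in DOX replicate 4 and 0.00 to 1.36 in Tb replicate 5. Counts without these libraries are given beside the results. The heart, the tissue named in the study's text and not in the labels, was checked with 10 cardiomyocyte markers, all of which were tested. They summed to 14600 to 22200 FPKM per library, while 8 skeletal muscle markers summed to 0.81 to 8.5 FPKM. Of the skeletal muscle markers *Tnnt3* was highest, at up to 3.63 FPKM.

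FPKM, the count scaled to transcript length and library total, was used for levels because it allows genes of different length to be compared. Of the 117 channel genes, 35 had a mean of at least 0.5 FPKM over the 21 libraries and were tested. The highest mean in Control was that of *Kcnip2*, the gene of KChIP2, at 48.4 ± 6.95 FPKM (SD, n = 5), followed by *Kcnk3*, the K2P channel TASK-1, at 34.5 ± 6.13 FPKM (SD, n = 5). Their libraries overlapped, at 40.3 to 57.5 and 29.6 to 45 FPKM. Of the genes below them, *Scn4b*, *Kcnj5*, *Kcnj3* and *Kcnj11* stood in the order of their Control means, at 19.99 to 27.6, 18 to 22.6, 15.6 to 21.3 and 17.1 to 18.8 FPKM, with overlapping ranges between neighbours in this order. In DOX the order differed, with *Scn4b* at a mean of 6.28 FPKM and *Kcnj11* at 19.8 FPKM. Summed over all 99 Kcn genes, the level was 239 ± 15.4 FPKM in Control, 199 ± 28.4 in DOX, 213 ± 30.2 in Tb and 241 ± 4.64 in Tb-DOX (mean ± SD over libraries), with overlapping ranges between DOX and Control.

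**Figure D1:**
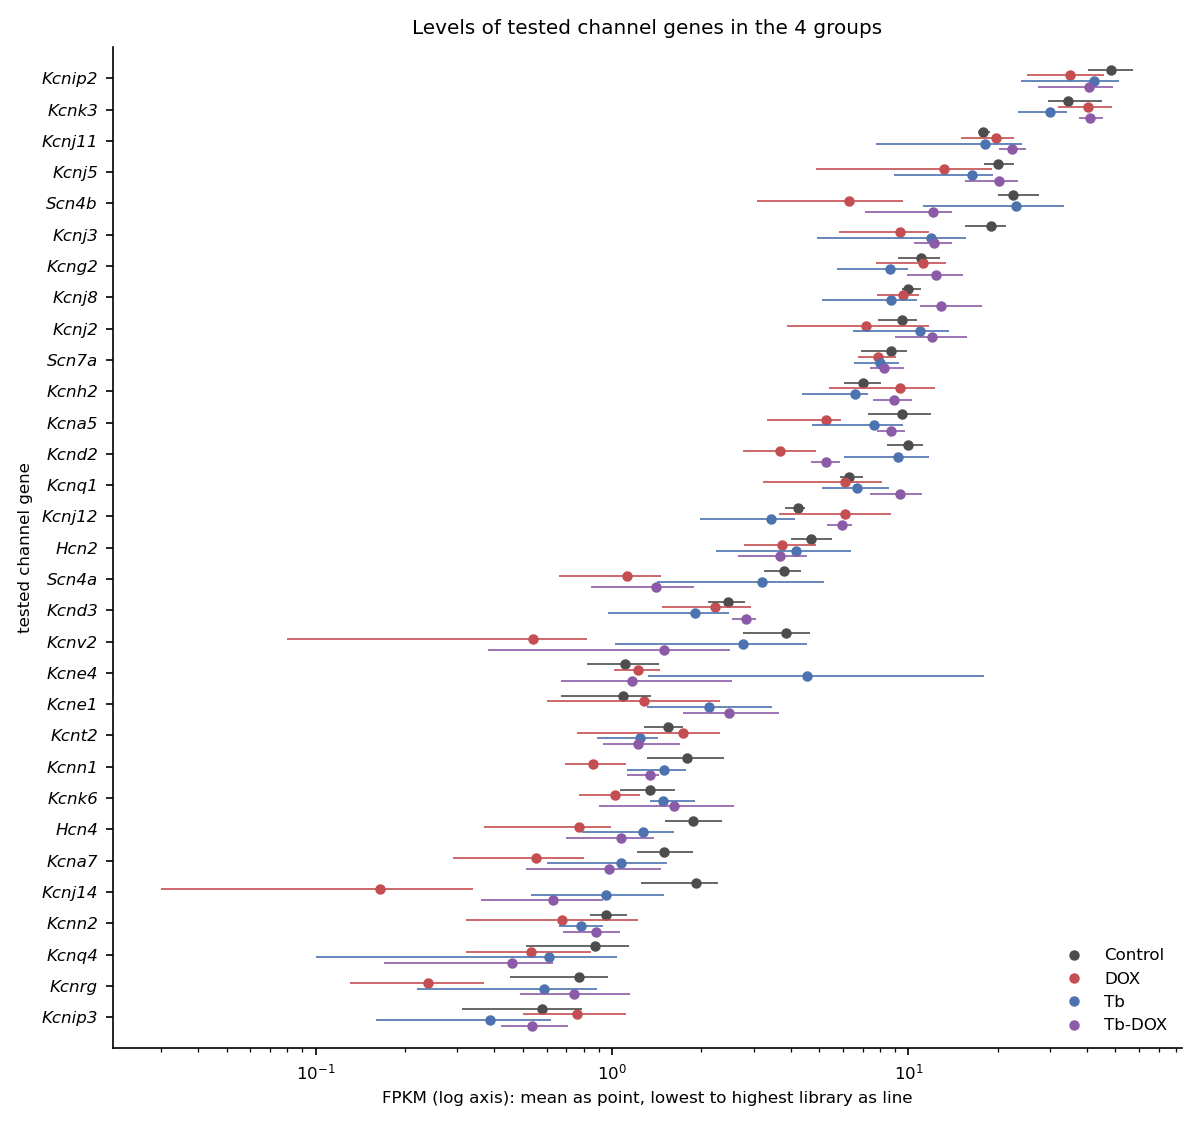
Mean FPKM (points, log axis) and range over libraries (lines) of 31 tested channel genes in Control, DOX, Tb and Tb-DOX, ordered by the mean over all libraries. *Kcnip2* is at the top, and the DOX points of *Scn4b*, *Kcnv2* and *Kcnj14* lie to the left of those of the other groups.

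DOX against Control was the comparison with the most calls. Of the 35 tested genes, 11 fell and 4 rose (edgeR's quasi-likelihood test, Benjamini-Hochberg adjusted p under 0.05 over 13990 genes), and 20 did not pass. Among all tested genes 18.2% fell and 18% rose, so 31.4% of the channel genes fell against 18.2% of all genes and 11.4% rose against 18%. The median log2 fold change of the 35 was -0.25, against 0.00 over all genes. Scaling by library totals alone moved the median of all genes to -0.14 and that of the channel genes to -0.40. It gave 12 lower and 2 higher, and the share of all genes with that scaling is not given here. The FPKM ranges of the groups did not overlap for 12 of the 35 genes, or 34.3%, against 25.2% of all genes. Without DOX replicate 4 and Tb replicate 5 together, 11 fell and 5 rose. Leaving out DOX replicate 2 left 2 higher, the lowest such count. In bulk tissue, fewer cells of a type and less RNA per cell cannot be told apart.

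In tumor-bearing mice, Tb-DOX against Tb, 4 of the 35 genes rose, 3 fell and 28 did not pass, where 2.18% of all tested genes rose and 2.54% fell. These are 11.4% and 8.57% of the channel genes. Their median log2 fold change was 0.14, against -0.02 over all genes. The groups did not overlap for 6 of the 35, or 17.1%, against 4.3% of all genes. The count of higher genes dropped to 2 without any 1 of Tb replicates 3, 4 and 5 or Tb-DOX replicates 1, 2 and 5, and that of lower genes to 1 without Tb-DOX replicate 5. Without DOX replicate 4 and Tb replicate 5 together the counts were 4 and 3. *Kcnd2* and *Scn4a* fell, and *Kcnj12* and *Kcnk3* rose, in both comparisons. These share no library, but both come from 1 fit with a shared estimate of spread, so the calls are not independent.

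**Figure D2:**
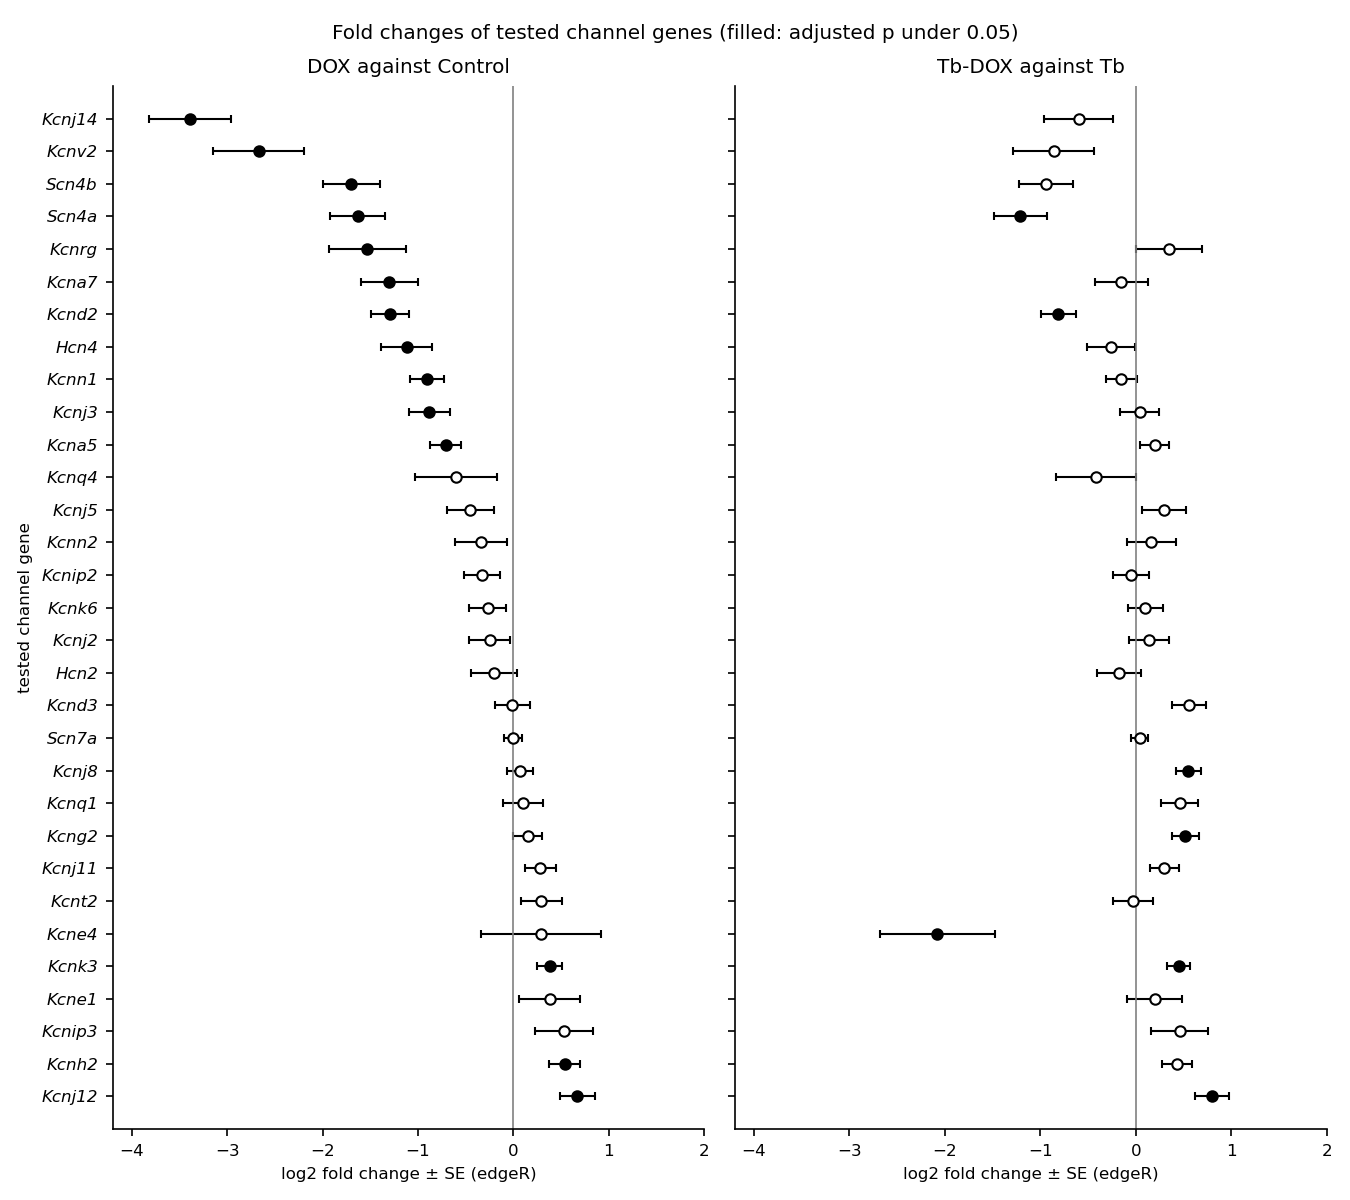
Log2 fold changes with SE from edgeR for 31 tested channel genes, DOX against Control on the left and Tb-DOX against Tb on the right, in the order of the left panel. Filled points had an adjusted p under 0.05. *Kcnj14* lies at -3.39 on the left and at -0.60 on the right.

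Among the voltage-gated potassium channel alpha subunits, 9 of 30 were tested, of which 3 fell and 1 rose in DOX against Control and 1 fell in Tb-DOX against Tb. *Kcnd2* encodes the pore of the fast transient outward channel (ENSMUSG00000060882, chromosome 6, 21215502 to 21729804, plus strand). Its level was 9.52, 10.1, 8.47, 11.2 and 10.6 FPKM in Control and 4.89, 4.09, 2.77, 2.8 and 3.88 FPKM in DOX. Every DOX library lay below every Control library, a log2 fold change of -1.29 ± 0.20, adjusted p = 5.75e-05, or 2.45-fold lower. Over the Tb libraries *Kcnd2* had a lowest value of 6.05, a median of 9.72 and a highest of 11.8 FPKM, and it was 5.89, 5.36, 4.94, 4.68 and 5.53 FPKM in Tb-DOX. All Tb-DOX libraries lay below all Tb libraries, although Tb replicates 5 and 6, at 6.05 and 6.29 FPKM, were closer to them than to the other Tb libraries, and the log2 fold change was -0.81 ± 0.19, adjusted p = 0.017. The fall was called in each of 21 fits that left out 1 library, in both comparisons. *Kcnd3*, the other transient outward alpha subunit of the heart, was 2.11 to 2.8 FPKM in Control and 1.47 to 2.93 in DOX (-0.01 ± 0.19, adjusted p = 0.985), and 0.97 to 2.48 in Tb and 2.54 to 3.06 in Tb-DOX (0.56 ± 0.18, adjusted p = 0.0754). In the tumor-bearing mice the *Kcnd3* ranges did not overlap, and the gene was not called. It was called with DESeq2 (0.56) and without Tb replicate 1 (0.66, adjusted p = 0.0493).

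*Kcna5*, the alpha subunit of an ultrarapid delayed rectifier, was 7.33, 11, 12, 7.71 and 9.61 FPKM in Control and 5.71, 5.92, 5.52, 3.33 and 5.84 FPKM in DOX. It was lower in every DOX library, with a log2 fold change of -0.71 ± 0.16, adjusted p = 0.00187. The Tb libraries had a lowest value of 4.72, a median of 7.71 and a highest of 9.55 FPKM, and in Tb-DOX 9.52, 9.73, 8.4, 8.24 and 7.81 FPKM, overlapping ranges with a log2 fold change of 0.20 ± 0.15, adjusted p = 0.5. *Kcna7*, a further shaker-type alpha subunit, was 1.21 to 1.88 FPKM in Control and 0.29 to 0.8 FPKM in DOX and fell by 1.30 on the log2 scale (SE 0.30, adjusted p = 0.00199), whereas Tb and Tb-DOX overlapped (-0.15 ± 0.28, adjusted p = 0.806). *Kcnh2*, which encodes the rapid delayed rectifier hERG, rose: it was 6.06, 7.83, 8.06, 6.92 and 6.37 FPKM in Control and 10.3, 12.3, 11.5, 5.38 and 7.29 FPKM in DOX. The groups overlapped, with DOX replicate 4 below every Control library and DOX replicate 5 within the Control range, and the log2 fold change was 0.54 ± 0.16, adjusted p = 0.0125. Without DOX replicate 2 it was 0.40, with an adjusted p of 0.0518, and the call was also lost with library totals alone (0.41) and with limma on log2 FPKM (0.32 and 0.35). In Tb-DOX all *Kcnh2* values, 7.58 to 10.2 FPKM, lay above those of Tb, 4.36 to 7.31 FPKM, but the gene did not pass (0.43 ± 0.15, adjusted p = 0.113).

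The slow delayed rectifier *Kcnq1* was 5.87 to 7.01 FPKM in Control, 3.22 to 8.16 in DOX, 5.12 to 8.62 in Tb and 7.39 to 11.1 in Tb-DOX. It passed neither comparison (0.10 ± 0.21, adjusted p = 0.73 without a tumor and 0.46 ± 0.20, adjusted p = 0.177 with one). *Kcna4*, the slow transient outward alpha subunit, was below the filter at 20 to 32 counts per library in Control and 11 to 41 in DOX. *Kcnq1* and *Kcnd2* each contain other annotated genes on their own strand, and *Kcnq1* also spans *Kcnq1ot1* on the opposite strand. Because the strand setting of the counting was not stated, reads of such overlapping pairs cannot be told apart, which also holds for *Kcnh2*, *Kcnk3*, *Kcnd3*, *Kcne4*, *Kcnt2*, *Kcnn1*, *Kcnn2*, *Kcng2*, *Kcnip3* and *Kcnrg*.

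Modifier alpha subunits do not open on their own and alter the voltage-gated channels they join. Of 10 such genes 2 were tested. *Kcnv2*, one of these silent subunits, was 2.77, 4.66, 4.45, 3.49 and 3.98 FPKM in Control and 0.82, 0.45, 0.08, 0.82 and 0.53 FPKM in DOX. The groups were far apart, with a log2 fold change of -2.67 ± 0.48, adjusted p = 0.000242, 6.38-fold lower. It had a lowest value of 1.02, a median of 2.85 and a highest of 4.55 FPKM in Tb and was 1.97, 2.5, 1.19, 0.38 and 1.47 FPKM in Tb-DOX, an overlap in which the test was not passed (-0.86 ± 0.42, adjusted p = 0.257). *Kcng2*, another modifier, did not pass without a tumor (0.15 ± 0.15, adjusted p = 0.443). In the tumor-bearing mice it had a lowest value of 5.76, a median of 9.11 and a highest of 9.96 FPKM in Tb and was 12.7, 12.3, 9.85, 12.2 and 15.2 FPKM in Tb-DOX, and it rose (0.52 ± 0.14, adjusted p = 0.0394). That call was lost without Control replicate 4, without any 1 of Tb replicates 3, 4 and 5, and without any 1 of Tb-DOX replicates 1, 2 and 5, where the log2 fold change was 0.42 to 0.54 and the adjusted p 0.0503 to 0.136. Limma and a fit of Tb and Tb-DOX only did not call it either (0.48 to 0.53).

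**Figure D3:**
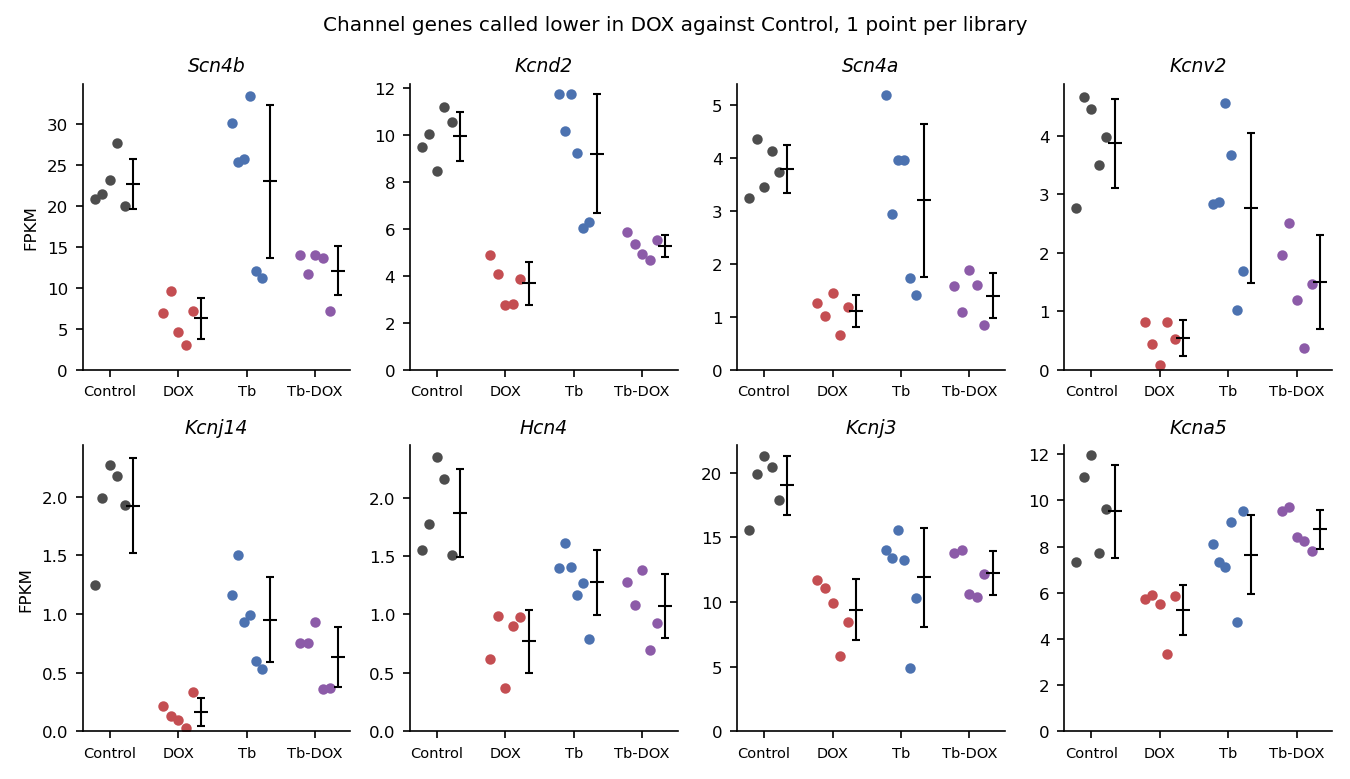
FPKM per library (1 point each, with mean and SD beside) of 8 channel genes called lower in DOX against Control. DOX points lie below every Control point in all 8 panels, and 2 of the 6 Tb points of *Scn4b*, *Kcnd2*, *Scn4a* and *Kcnv2*, replicates 5 and 6, lie below the other 4.

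Of 16 accessory potassium channel subunits 4 were tested, and for these 4 the log2 fold changes of DOX against Control missed the threshold. *Kcnip2*, the cytosolic partner of the Kcnd channels, was 40.3, 43.9, 53.2, 46.9 and 57.5 FPKM in Control and 31.3, 35.1, 45.6, 25.1 and 38.1 FPKM in DOX. The values overlapped (-0.33 ± 0.19, adjusted p = 0.181). *Kcnip2* did not pass in the tumor-bearing mice either (-0.05 ± 0.18, adjusted p = 0.905). *Kcnip3*, a relative of *Kcnip2*, was 0.31 to 0.79 FPKM in Control and 0.5 to 1.11 in DOX (0.53 ± 0.31, adjusted p = 0.187). *Kcne1*, the partner of *Kcnq1*, was 0.67 to 1.35 FPKM in Control and 0.6 to 2.31 in DOX (0.38 ± 0.32, adjusted p = 0.369), and 1.31 to 3.46 in Tb and 1.73 to 3.66 in Tb-DOX (0.20 ± 0.29, adjusted p = 0.745). *Kcne4*, an inhibitory subunit of several voltage-gated channels, was 1.55, 2.02, 1.85, 1.32, 17.9 and 2.50 FPKM in the 6 Tb libraries, and 0.98, 0.83, 0.84, 2.54 and 0.67 FPKM in Tb-DOX. Tb replicate 5 held the high value. With it the log2 fold change of Tb-DOX against Tb was -2.08 ± 0.60, adjusted p = 0.0486, and without it -0.65 ± 0.28, adjusted p = 0.17. The call was also lost when any 1 of 15 other libraries was left out, every Control and DOX library, Tb replicate 2 and Tb-DOX replicates 1, 2, 3 and 5, with a log2 fold change down to -2.23 and an adjusted p from 0.0505, and with library totals, limma, DESeq2 and the fit of Tb and Tb-DOX only (-2.1 to -0.89).

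*Kcnrg* encodes a soluble regulator that holds back the assembly of voltage-gated channels. It was 0.97, 0.45, 0.92, 0.84 and 0.68 FPKM in Control and 0.13, 0.37, 0.15, 0.31 and 0.23 FPKM in DOX, lower in every DOX library (-1.53 ± 0.40, adjusted p = 0.0054). In Tb it had a lowest value of 0.22, a median of 0.66 and a highest of 0.89 FPKM and in Tb-DOX it was 0.82, 1.15, 0.73, 0.53 and 0.49 FPKM, which overlapped (0.35 ± 0.35, adjusted p = 0.618). The gene was counted from 4 to 34 times per library, so its values are coarse, and it lies within the span of *Dleu2* on the opposite strand.

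The inward rectifiers had 7 tested genes of 15, of which 2 fell and 1 rose in DOX against Control and 2 rose in Tb-DOX against Tb. *Kcnj14*, a weakly expressed member, was 1.25, 1.99, 2.27, 2.18 and 1.93 FPKM in Control and 0.22, 0.13, 0.1, 0.03 and 0.34 FPKM in DOX, from 54 to 99 counts against 1 to 13. It had the lowest log2 fold change of the 35 genes, -3.39 ± 0.43, adjusted p = 1.14e-05. Over Tb it had a lowest value of 0.53, a median of 0.96 and a highest of 1.5 FPKM and in Tb-DOX it was 0.75, 0.75, 0.93, 0.36 and 0.37 FPKM. These overlapped, with a log2 fold change of -0.60 ± 0.36, adjusted p = 0.359. *Kcnj3*, the pore subunit of the acetylcholine-activated channel, was 15.6, 19.9, 21.3, 20.4 and 17.9 FPKM in Control and 11.7, 11.1, 9.95, 5.81 and 8.43 FPKM in DOX. No DOX library reached the lowest Control library (-0.88 ± 0.21, adjusted p = 0.00308). Tb and Tb-DOX overlapped at 4.92 to 15.6 and 10.4 to 14.1 FPKM (0.04 ± 0.20, adjusted p = 0.933). Its partner in the same channel, *Kcnj5*, was 18 to 22.6 FPKM in Control and 4.87 to 19.1 in DOX and did not pass (-0.45 ± 0.24, adjusted p = 0.155), nor did it with a tumor (0.30 ± 0.23, adjusted p = 0.507). In DOX against Control it was called by limma at either pseudocount (-0.73 and -0.67) and without DOX replicate 2 (-0.64, adjusted p = 0.0493).

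*Kcnj12*, one of the inward rectifiers that set the resting potential, moved the other way (ENSMUSG00000042529, chromosome 11, 60913390 to 60961957, plus strand). It was 3.83, 4.26, 4.26, 4.41 and 4.49 FPKM in Control and 6.14, 8.75, 5.55, 3.65 and 6.54 FPKM in DOX. DOX replicate 4 lay below every Control library and the other 4 above, and the log2 fold change was 0.67 ± 0.18, adjusted p = 0.00727. With limma on log2 FPKM the change was 0.40 to 0.47 and not called. Over Tb, *Kcnj12* had a lowest value of 1.98, a median of 3.85 and a highest of 4.15 FPKM and in Tb-DOX it was 5.7, 6.23, 5.32, 6.47 and 6.1 FPKM. Every Tb-DOX library was above every Tb library, a log2 fold change of 0.80 ± 0.17, adjusted p = 0.0129, or 1.74-fold higher. *Kcnj2*, the better expressed gene of the same current, passed neither test (-0.25 ± 0.22, adjusted p = 0.377 and 0.14 ± 0.21, adjusted p = 0.762), with 7.92 to 10.7 FPKM in Control, 3.9 to 11.7 in DOX, 6.48 to 13.7 in Tb and 9.03 to 15.7 in Tb-DOX. The interaction of DOX and tumor for *Kcnj12* was 0.13 ± 0.25, adjusted p = 0.766.

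The ATP-sensitive channels pair a Kcnj pore with a sulfonylurea receptor, *Abcc9* beside *Kcnj8* or *Abcc8* beside *Kcnj11*, and in ventricular cardiomyocytes the *Kcnj11* pore is known to pair with the *Abcc9* product. *Kcnj8*, the pore of the vascular form, was 9.48 to 11 FPKM in Control and 7.82 to 10.9 in DOX (0.07 ± 0.14, adjusted p = 0.701). In Tb it had a lowest value of 5.12, a median of 9.21 and a highest of 10.7 FPKM and in Tb-DOX 12.2, 11.6, 12.2, 17.7 and 10.9 FPKM. The Tb-DOX libraries all lay above the Tb libraries, and *Kcnj8* rose (0.55 ± 0.13, adjusted p = 0.018). Its log2 fold change was 0.46 without Tb replicate 5, still called, and 0.56 in a fit of Tb and Tb-DOX only, where the call was lost. *Abcc9*, 16247 bases away, was 43.9 to 56 FPKM in Tb and 44.2 to 54.2 in Tb-DOX and did not pass (-0.08 ± 0.12, adjusted p = 0.767). *Kcnj11*, the pore of the cardiomyocyte form, passed neither test (0.28 ± 0.16, adjusted p = 0.178 and 0.30 ± 0.15, adjusted p = 0.277), and its neighbour *Abcc8*, 3758 bases away and at 2.43 to 5.08 FPKM in Tb and 4.96 to 5.46 in Tb-DOX, rose in Tb-DOX against Tb (0.39 ± 0.11, adjusted p = 0.0431). For *Kcnj11* in DOX against Control the call changed when Tb replicate 5 was left out (0.29, adjusted p = 0.0129), a library that enters that fit only through the shared estimate of spread. Markers of smooth muscle and pericytes, the cells known for *Kcnj8*, summed to 203 to 278 FPKM in Tb and 220.0 to 256 in Tb-DOX, and 1 rose and 0 fell of 8 tested.

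Of 14 genes of K2P channels 2 were tested. *Kcnk3* was 33.9, 30.7, 45, 29.6 and 33.2 FPKM in Control and 43, 48.6, 31.9, 32.4 and 46.4 FPKM in DOX, which overlapped, and it rose by a log2 fold change of 0.38 ± 0.13, adjusted p = 0.0231. The call was lost without Control replicate 2 or 4 or DOX replicate 2 or 5, with a log2 fold change of 0.29 to 0.35 and an adjusted p of 0.0556 to 0.0844. It was also lost with library totals alone, with limma and in a fit of Control and DOX only (0.22 to 0.38). With a tumor, *Kcnk3* had a lowest value of 23.4, a median of 30.4 and a highest of 34.3 FPKM in Tb and was 39.2, 45.3, 39.6, 37.5 and 43.8 FPKM in Tb-DOX, without overlap (0.45 ± 0.12, adjusted p = 0.037). Leaving out any 1 of Tb replicates 1 to 5 or of Tb-DOX replicates 1, 2, 3 and 5 put the adjusted p at 0.0503 to 0.103, with a log2 fold change of 0.41 to 0.47, and library totals, limma and the fit without a filter gave no call (0.44 to 0.45). *Kcnk6*, the other tested gene of the class, passed neither comparison (-0.27 ± 0.20, adjusted p = 0.3 and 0.10 ± 0.18, adjusted p = 0.819).

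*Kcnk2*, the stretch-activated TREK-1, was below the filter and is given in counts. It was counted 40 to 90 times per library in Control, 6 to 12 in DOX, 12 to 66 in Tb and 7 to 16 in Tb-DOX. In the fit without a filter, over 34543 genes, it fell in DOX against Control (-2.57 ± 0.45, adjusted p = 8.36e-05), where the groups did not overlap, and in Tb-DOX against Tb (-1.61 ± 0.43, adjusted p = 0.0409), where they did.

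The calcium- and sodium-activated potassium channels had 3 tested genes of 8. *Kcnn1*, a small-conductance channel opened by calcium, was 1.7, 1.58, 2.38, 1.31 and 1.99 FPKM in Control and 0.98, 0.73, 0.69, 1.11 and 0.78 FPKM in DOX. It fell without overlap (-0.91 ± 0.18, adjusted p = 0.000546). Between Tb and Tb-DOX, at 1.12 to 1.77 and 1.12 to 1.44 FPKM, the log2 fold change was -0.15 ± 0.17, adjusted p = 0.657. *Kcnn2* passed neither test (-0.34 ± 0.27, adjusted p = 0.334 and 0.16 ± 0.26, adjusted p = 0.781), but was called lower in DOX against Control without DOX replicate 5 (-0.66, adjusted p = 0.0434). *Kcnt2*, a sodium-activated channel, was 1.28 to 1.73 FPKM in Control and 0.76 to 2.31 in DOX (0.29 ± 0.21, adjusted p = 0.299), and was called higher there without DOX replicate 5 (0.49, adjusted p = 0.0295).

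**Figure D4:**
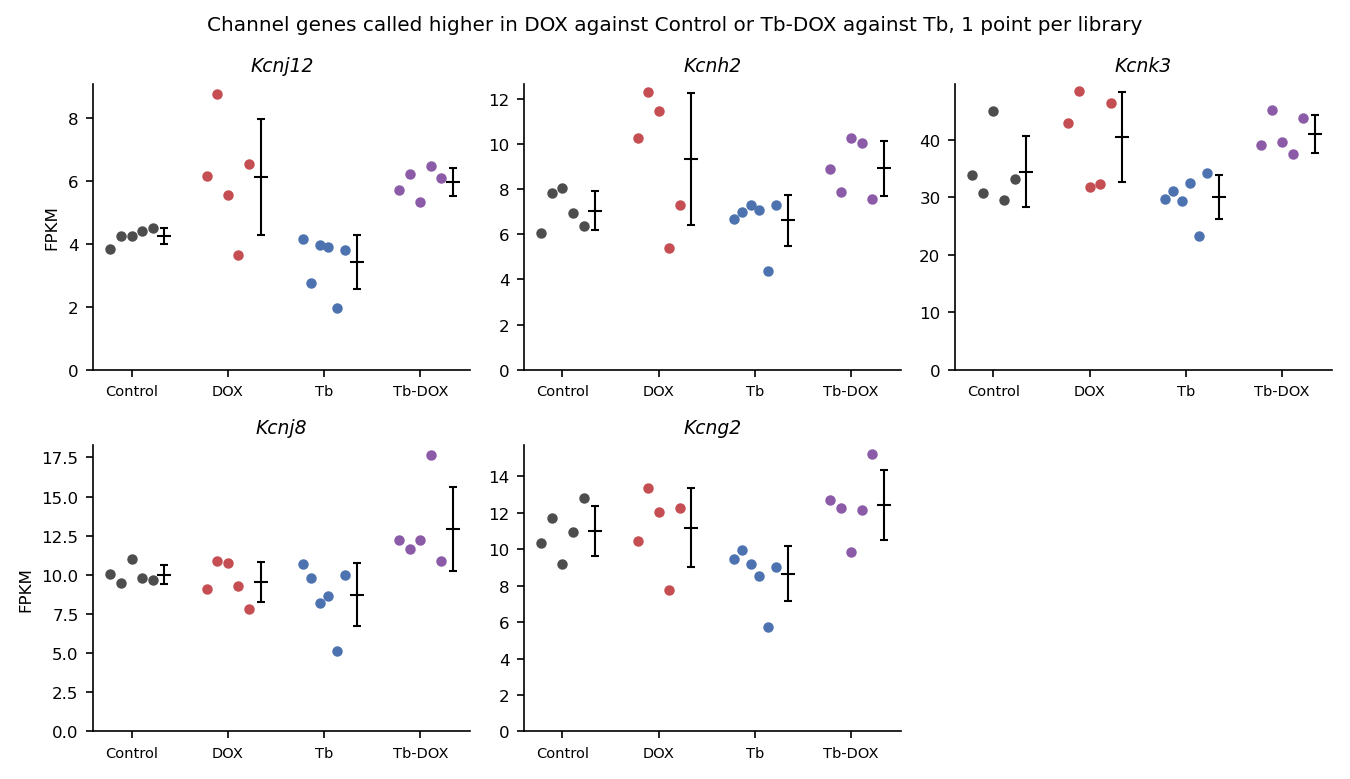
FPKM per library (1 point each, with mean and SD beside) of 5 channel genes called higher with DOX in at least 1 of the comparisons. Tb-DOX points of *Kcnj12*, *Kcnj8* and *Kcnk3* lie above every Tb point, and DOX replicate 4 is the lowest DOX point of *Kcnj12*, *Kcnh2* and *Kcng2*.

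Of the 10 sodium channel alpha subunits 3 were tested, of which 1 rose and 1 fell in DOX against Control. *Scn4a*, the sodium channel of skeletal muscle (ENSMUSG00000001027, chromosome 11, 106209418 to 106244114, minus strand), was 3.25, 4.35, 3.46, 4.14 and 3.74 FPKM in Control and 1.27, 1.02, 1.46, 0.66 and 1.19 FPKM in DOX. It fell in every DOX library (-1.63 ± 0.29, adjusted p = 0.000226). In Tb it had a lowest value of 1.42, a median of 3.46 and a highest of 5.18 FPKM and in Tb-DOX it was 1.59, 1.09, 1.89, 1.6 and 0.85 FPKM. The ranges overlapped through Tb replicates 5 and 6, and *Scn4a* fell (-1.21 ± 0.28, adjusted p = 0.0155), a call lost without Tb-DOX replicate 5 (-1.09, adjusted p = 0.0544) and in a fit of Tb and Tb-DOX only (-1.21). Of the skeletal muscle markers, 1 rose and 0 fell of 4 tested in DOX against Control, and the 8 summed to 1.26 to 7.8 FPKM in Control and 3.11 to 8.5 in DOX, with *Myod1* at 0 in every DOX library. *Scn7a*, a sodium-sensing relative of these channels, was 6.94 to 9.88 FPKM in Control and 6.75 to 9.09 in DOX (0.00 ± 0.09, adjusted p = 0.974).

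Beta subunits anchor sodium channels and tune their gating, and 2 of 4 were tested. *Scn4b* (ENSMUSG00000046480, chromosome 9, 45049693 to 45065450, plus strand), one of these subunits, was 20.9, 21.4, 23.1, 27.6 and 19.99 FPKM in Control and 6.94, 9.58, 4.58, 3.09 and 7.19 FPKM in DOX. The highest DOX library was below the lowest Control library, and the log2 fold change was -1.70 ± 0.30, adjusted p = 0.000205, 3.26-fold lower. Tb libraries spread widely, with a lowest value of 11.2, a median of 25.5 and a highest of 33.4 FPKM, and the Tb-DOX libraries were at 14, 11.6, 14.1, 13.7 and 7.16 FPKM. Tb replicates 5 and 6, at 12.0 and 11.2 FPKM, lay among the Tb-DOX libraries and the other Tb libraries above them, and the test was not passed (-0.94 ± 0.28, adjusted p = 0.0556). Without Tb replicate 5 the log2 fold change was -1.05, adjusted p = 0.024. It was also called with all libraries by DESeq2 (-0.94) and without a filter (-0.95), and when Tb replicate 6, DOX replicate 2 or DOX replicate 4 was left out.

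Of the 4 pacemaker channel genes, *Hcn4* and *Hcn2* were tested. *Hcn4*, the main gene of the sinus node current, was 1.55, 1.77, 2.35, 2.16 and 1.51 FPKM in Control and 0.62, 0.99, 0.37, 0.9 and 0.98 FPKM in DOX. No DOX library overlapped Control, and *Hcn4* fell (-1.12 ± 0.26, adjusted p = 0.00253). Across Tb, *Hcn4* had a lowest value of 0.79, a median of 1.33 and a highest of 1.61 FPKM and in Tb-DOX it was 1.28, 1.08, 1.38, 0.7 and 0.93 FPKM, an overlap with a log2 fold change of -0.26 ± 0.25, adjusted p = 0.601. *Hcn2*, a ventricular form, was 4.02 to 5.54 FPKM in Control and 2.78 to 4.88 in DOX (-0.20 ± 0.24, adjusted p = 0.541), and with a tumor its log2 fold change was -0.18 ± 0.23, adjusted p = 0.709. Of the 7 conduction system markers, a list that contains *Hcn4* itself, 3 were tested. *Smoc2* fell in DOX against Control (-1.61 ± 0.17, adjusted p = 1.37e-06) and fell in Tb-DOX against Tb (-0.94 ± 0.16, adjusted p = 0.00201). *Tbx3*, the third, was 2.01 to 3.44 FPKM in Control and 1.81 to 4.16 in DOX and passed neither test (0.45 ± 0.22, adjusted p = 0.108 and -0.39 ± 0.21, adjusted p = 0.307). Of the 4 untested markers, *Cntn2* was 0.13 to 0.3 FPKM in Control and 0.29 to 0.97 in DOX, *Cacna2d2* was 0.32 to 0.58 and 0.2 to 0.41, *Shox2* was 0.32 to 0.57 and 0.18 to 0.55, and *Isl1*, a defining marker of the sinus node, was at most 0.05 FPKM in every library. The list summed to 14.6 to 17.2 FPKM in Control and 7.64 to 9.43 in DOX, of which *Smoc2* alone was 9.55 to 11.1 and 2.61 to 3.87. The part of conduction tissue in the *Hcn4* result was not tested.

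Whether the response to DOX differed between mice without and with a tumor was tested with an interaction term, the log2 fold change of Tb-DOX against Tb minus that of DOX against Control. For 3 of the 35 genes it was above 0, and for none below 0, where 3.95% of all tested genes were above and 5.0% below (8.94% either way). At an unadjusted p under 0.05 there were 14, and DESeq2 called 6 above and 1 below. The shares of all genes at that threshold and with DESeq2 are not given here. The 3 were *Kcnj14* at 2.79 ± 0.55, adjusted p = 0.0106, *Kcnrg* at 1.89 ± 0.53, adjusted p = 0.0329 and *Kcna5* at 0.91 ± 0.22, adjusted p = 0.0202. Each was called lower in DOX against Control and was not called in Tb-DOX against Tb. *Kcnj14* and *Kcna5* were called in each of the 21 fits without 1 library. *Kcnrg* was lost without Control replicate 1 or 4, DOX replicate 3 or Tb-DOX replicates 1, 2 or 3, at 1.67 to 1.88 with an adjusted p of 0.052 to 0.0663, and also without a filter (1.87). *Kcnj3* (0.92 ± 0.29, adjusted p = 0.0518) and *Kcnn1* (0.76 ± 0.24, adjusted p = 0.0528) did not pass in this fit. With all libraries, *Kcnj3* was called with library totals, without a filter, at a mean FPKM of at least 5, by limma at either pseudocount and by DESeq2 (0.90 to 1.15), and *Kcnn1* with library totals (0.91, adjusted p = 0.0299). Leaving out a single library also gave calls, for *Kcnj3* without DOX replicates 1 or 2, Tb replicates 1, 2, 3 or 5 or Tb-DOX replicate 4 (0.77 to 1.02) and for *Kcnn1* without Control replicate 4, DOX replicates 1 or 4, Tb replicate 2 or Tb-DOX replicate 4 (0.81 to 0.87). *Kcnv2* was called with library totals (1.96, adjusted p = 0.0476), without a filter (1.80) and without Tb-DOX replicate 4 (2.07), *Kcnj8* without Tb replicate 1 (0.56) and *Kcna7* without Tb replicate 2 or Tb-DOX replicate 2 (1.28 to 1.31). For the other genes called in 1 of the 2 DOX comparisons and not in the other, such as *Hcn4* (0.85 ± 0.36, adjusted p = 0.123), *Kcnv2* (1.81 ± 0.62, adjusted p = 0.0666) and *Scn4b* (0.76 ± 0.40, adjusted p = 0.21), a difference between the settings was not called by this fit. The count of genes above 0 ran from 2 without any 1 of Control replicate 1, DOX replicate 3 and Tb-DOX replicates 1 and 3 to 6 without Tb replicate 2 or without Tb-DOX replicate 4, and was 5 without DOX replicate 4 and Tb replicate 5. The median interaction of the 35 was 0.37, against 0.00 over all genes.

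The tumor on its own, Tb against Control, gave 1 higher and 1 lower gene, where 5.0% of all tested genes rose and 1.29% fell. At an unadjusted p under 0.05 there were 9, a threshold for which the share of all genes is not given here. The FPKM of the groups overlapped for all 35 genes, where 5.73% of all genes did not overlap. *Kcne4* was 1.11, 1.44, 0.87, 1.27 and 0.82 FPKM in Control, and its rise (2.08 ± 0.60, adjusted p = 0.041) was lost without Tb replicate 5 (0.66, adjusted p = 0.233). It was also lost without any 1 Control library and without Tb-DOX replicate 1 or 3, at up to 2.21 with an adjusted p from 0.0501, and with limma, DESeq2 and the fit of Control and Tb only (0.89 to 2.10). *Kcnj3* was lower in Tb (-0.72 ± 0.20, adjusted p = 0.0339), although the highest Tb library, at 15.59 FPKM, just reached the lowest Control library, at 15.56 FPKM. That call was lost without Control replicates 2, 3, 4 or 5 or Tb replicate 6, at -0.74 to -0.66 with an adjusted p of 0.0569 to 0.0868. It was also lost with library totals, limma at either pseudocount and the fit of Control and Tb only (-0.75 to -0.67). *Kcnj14*, at 0.53 to 1.5 FPKM in Tb, did not pass (-1.05 ± 0.34, adjusted p = 0.0706), but was called lower without DOX replicate 4 or Tb replicate 2 (-1.05 and -1.23), by DESeq2 (-1.05), by limma on log2(FPKM + 1) (-0.59) and in the fit of Control and Tb only (-1.03). *Kcne1* did not pass either (0.92 ± 0.30, adjusted p = 0.0789) and was called higher without DOX replicate 3, DOX replicate 5 or Tb replicate 2 (0.92 to 1.02) and by DESeq2 (0.93).

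Between the treated groups, Tb-DOX against DOX, 3 genes were higher and 2 lower, where 9.52% of all tested genes were higher and 7.93% lower. The higher genes were *Kcnj14* (1.74 ± 0.44, adjusted p = 0.00882), *Kcnrg* (1.44 ± 0.40, adjusted p = 0.0173) and *Kcna5* (0.55 ± 0.16, adjusted p = 0.0232), and for all 3 the groups did not overlap, which held for 5 of the 35 genes, or 14.3%, and for 15.8% of all genes. *Kcnt2* was among the lower genes (-0.69 ± 0.22, adjusted p = 0.0311), and the groups overlapped. Of these 4 genes, only *Kcnj14* was called in all 21 fits without 1 library. *Kcnrg* was lost without DOX replicate 3 or Tb-DOX replicate 2 (1.22 to 1.28), *Kcna5* without DOX replicate 3 or 4 or Tb-DOX replicate 1 or 2 (0.42 to 0.53) and *Kcnt2* without DOX replicates 1, 2 or 3 or Tb-DOX replicates 1, 3 or 4 (-0.68 to -0.60). The count of lower genes was 0 without Tb-DOX replicate 3 in edgeR, and that of higher genes ran from 1 without DOX replicate 3 or Tb-DOX replicate 2 to 5 without DOX replicate 5. This comparison depended on scaling: with library totals alone the median of all genes moved to 0.18 and that of the channel genes to 0.38. With that scaling 12 of the 35 were higher and none was lower, and *Kcnt2*, at -0.51, was no longer called. The share of all genes called with library totals is not given here. Limma and the fit of DOX and Tb-DOX only did not call *Kcnt2* either (-0.69 to -0.28).

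The 82 channel genes below the filter comprised 5 with no count in any library (*Kcnk15*, *Kcnv1*, *Kcns2*, *Kcnj16* and *Kcnk12*), 37 with at most 10 counts in every library and 40 with more than 10 in some library. The fit without a filter took 77 of them, among 34543 genes. In DOX against Control 6 were called higher and 7 lower, where 7.24% and 7.22% of all genes in that fit were. The higher ones included *Kcnk7*, *Kcne2*, *Scn3a*, *Kcnt1* and *Kcnh7*, and the lower ones were *Kcnmb1*, *Kcnab2*, *Kcne3*, *Kcnk2*, *Kcna6*, *Scn3b* and *Kcnj15*. *Scn3b*, a sodium channel beta subunit like *Scn4b*, was counted 18 to 35 times in Control and 4 to 11 in DOX. *Kcnmb1*, the smooth muscle beta subunit of the large calcium-activated channel, was counted 13 to 26 times in Control and 3 to 8 in DOX. *Kcnh7*, a relative of *Kcnh2*, was counted 25 to 48 times in Control and 40 to 107 in DOX. *Scn2b*, a further beta subunit, was counted 8 to 30 times in Control and 0 to 9 in DOX and was not called.

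In Tb-DOX against Tb 2 of these low genes were higher, *Kcna2* and *Kcnt1*, and 1 was lower, *Kcnk2* (all genes of that fit, 0.727% and 0.944%). *Kcnt1*, a sodium-activated channel, was higher with DOX in both comparisons, at 0 to 23 counts in Control, 13 to 51 in DOX, 5 to 20 in Tb and 26 to 67 in Tb-DOX. *Kcnab2*, a cytosolic beta subunit, was counted 7 to 23 times in Control, 2 to 6 in DOX, 10 to 80 in Tb and 20 to 63 in Tb-DOX. It was called higher in Tb against Control, with *Kcnn3* (all genes, 2.79%), and was the 1 low gene called higher in Tb-DOX against DOX (all genes, 3.86%). No low gene was called lower in Tb against Control or in Tb-DOX against DOX, or above 0 in the interaction, by this edgeR fit (all genes, 0.585%, 2.59% and 1.53%). *Kcnk7* was the 1 low gene called in the interaction, below 0 (all genes, 2.03%), from 1 to 4 counts in Control and 0 to 93 in Tb.

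Other genes of cardiac excitation were read from 4 lists. Over all tested genes, 18% rose and 18.2% fell in DOX against Control, and 2.18% rose and 2.54% fell in Tb-DOX against Tb. Of 14 tested channel partners and anchors 6 rose and 1 fell in DOX against Control, and 4 rose and none fell in Tb-DOX against Tb. Among them *Popdc2*, a partner of K2P channels, rose without a tumor (1.04 ± 0.12, adjusted p = 6.56e-06), and *Gpd1l*, which acts on sodium channels, rose in both (0.47 ± 0.08, adjusted p = 0.000154, and 0.38 ± 0.08, adjusted p = 0.00785). *Nedd4l*, a ubiquitin ligase that removes sodium channels from the membrane, fell without a tumor (-0.41 ± 0.12, adjusted p = 0.0126). Of 12 tested transcription factors of conduction and channel genes 4 rose and 1 fell in DOX against Control, and 1 rose in Tb-DOX against Tb. *Irx5*, a repressor of *Kcnd2*, was 0.36, 0.48, 0.68, 0.47 and 0.55 FPKM in Control and 0.95, 1.03, 0.77, 0.32 and 3.24 FPKM in DOX, and rose (1.46 ± 0.41, adjusted p = 0.00825), with DOX replicate 5 far above the rest and DOX replicate 4 below every Control library. Of 5 tested calcium channel subunits 1, *Cacna1g*, fell without a tumor (-0.70 ± 0.17, adjusted p = 0.00297) and none was called with one. Of 3 tested gap junction genes 1 rose and 1 fell without a tumor, and none was called with one.

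Markers of cell types were counted beside these genes. Among all tested genes 18% rose and 18.2% fell in DOX against Control. In Tb-DOX against Tb 2.18% rose and 2.54% fell. For cardiomyocytes 5 rose and 0 fell of 10 tested in DOX against Control and 3 rose and 0 fell of 10 tested in Tb-DOX against Tb, and the list summed to 16100 to 22200 FPKM in Control and 19300 to 22200 in DOX. For fibroblasts 1 rose and 5 fell of 8 tested and 0 rose and 4 fell of 8 tested, with sums of 279 to 349 FPKM in Control, 167 to 257 in DOX, 254 to 292 in Tb and 166 to 251 in Tb-DOX. For macrophages 0 rose and 6 fell of 8 tested and 0 rose and 2 fell of 8 tested, with sums of 57 to 81 FPKM in Control and 23.4 to 46.2 in DOX. For atrial cardiomyocytes, a list that contains *Kcnj3*, 1 rose and 1 fell of 7 tested and 1 rose and 0 fell of 7 tested. The list summed to 138 to 396 FPKM in Control and 401 to 753 in DOX. In Tb it summed to 105 to 342 and in Tb-DOX to 189 to 729. Its median log2 fold change was 0.09 in DOX against Control and 0.26 in Tb-DOX against Tb. In Tb against Control that median was -0.72, against -0.01 over all genes. *Myl7*, the atrial light chain, ranged from 12.3 to 89.7 FPKM within Control and from 0 to 76.6 within DOX. For endothelial cells 0 rose and 1 fell of 8 tested and 0 rose and 0 fell of 8 tested, for smooth muscle and pericytes 1 rose and 0 fell of 8 tested and 1 rose and 0 fell of 8 tested, and for Schwann cells and neurons 0 rose and 2 fell of 2 tested and 0 rose and 0 fell of 2 tested. For skeletal muscle 1 rose and 0 fell of 4 tested and 0 rose and 0 fell of 4 tested, for T cells *Cd3e* was the 1 gene tested, and no adipocyte marker passed the filter. The part of these cells in the channel results was not tested.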

How the data were processed

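RNA sequencing of 21 mouse heart libraries in 4 groups was analysed from a table of raw counts and FPKM values deposited by the authors. The submitters' processing notes name cutadapt, FastQC, HISAT2, HTSeq 0.6.1, DESeq2 1.34.0 and GRCm39, with no role or order; the strand setting and annotation release are not given in the sources used here. The deposited FPKM equalled the count scaled to transcript length and library total in 100% of values, allowing for rounding. Counts were tested with edgeR 4.0.16 (R 4.3.3), with TMM scaling, 1 quasi-likelihood fit of the 4 groups and Benjamini-Hochberg adjustment over the 13990 genes with a mean of at least 0.5 FPKM, two-sided, with a threshold of 0.05. Errors of log2 fold changes are SE, and FPKM errors are SD. Library totals of 13521200 to 18601445 counts set the precision of low genes. Alternatives used other scalings and filters, DESeq2 1.42.0, limma 3.58.1 on log2(FPKM + 0.1) and log2(FPKM + 1), only the groups compared, a replicate block, stricter thresholds and each library left out. The edgeR, DESeq2 and limma fits were tested on simulated data. The genes named are those that carry the main cardiac currents and, in each comparison, those with the largest called changes; *Kcna7*, *Kcnn1*, *Kcnk6*, *Kcnn2*, *Kcnip3*, *Scn7a* and *Scn2b*, and the low genes other than *Kcna4* and *Kcnk2*, were named after their values were seen. Some members are not reported here by name and enter only the counts and sums. The members and gene lists were chosen with earlier results of these data known. Promoter sequences came from RefSeq on GRCm38.p6, another build than that of the counts.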

Additional observations from a re-analysis of the deposited data

Results flagged for a closer look

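In 9 of 104 combinations of a named channel gene and a group, the highest or lowest library lay far from the others by Dixon's criterion, which chance gives in about 1 of 20. Tb replicate 5 gave 5 of them. It was at 4.36 FPKM for *Kcnh2* (other Tb libraries 6.68 to 7.31), 7.79 for *Kcnj11* (18.1 to 24.2), 8.94 for *Kcnj5* (16.2 to 19.2), 5.76 for *Kcng2* (8.51 to 9.96) and 17.9 for *Kcne4* (1.32 to 2.50). DOX replicate 4 gave 1, at 3.33 FPKM for *Kcna5* (other DOX libraries 5.52 to 5.92). Tb-DOX replicate 4 gave 2, at 17.7 FPKM for *Kcnj8* (other Tb-DOX libraries 10.9 to 12.2) and 2.54 for *Kcne4* (0.67 to 0.98). Control replicate 3 was at 45.0 FPKM for *Kcnk3* (other Control libraries 29.6 to 33.9). What sets these libraries apart was not tested.

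The effect of DOX differed between mice with and without a tumor for *Kcna5*, by 0.91 on the log2 scale, for *Kcnj14*, by 2.79, and for *Kcnrg*, by 1.89, in edgeR's test of the interaction. The call of *Kcnrg* was lost without a filter and in 6 of the 21 fits without 1 library.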

How the results depend on the processing

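No called log2 fold change of a named gene reversed under the alternatives run; values near 0 that were not called could change sign. Counts are given as higher and lower channel genes, or, where a single count is given, the direction whose count moved by over 1.5 times. Shares of all genes under each alternative are not given beside them. DOX against Control: 0 higher when calls also needed a log2 change of 1 or more in size, 2 higher at an adjusted p under 0.01 or with library totals, 1 higher with limma at either pseudocount, 4 lower at a mean FPKM of at least 5, and 10 higher and 18 lower without a filter, which tests more genes. Tb-DOX against Tb: 0 higher at a log2 fold change of at least 1, 0 and 0 at an adjusted p under 0.01, 2 higher with limma, 1 lower at a mean FPKM of at least 5, 5 higher and 5 lower without a filter, and 2 and 1 with only the groups compared. Interaction: 6 and 1 with DESeq2, 0 above at an adjusted p under 0.01, 6 above with library totals, 5 above with limma, and 4 above and 3 below without a filter. Tb against Control: 2 lower with DESeq2, 0 lower at a log2 fold change of at least 1, 0 and 0 at an adjusted p under 0.01, 0 lower with library totals, 0 and 0 with limma on log2(FPKM + 0.1), 0 higher with limma on log2(FPKM + 1), with the filter at 5 FPKM and with only the groups compared, and 3 higher without a filter. Tb-DOX against DOX: 0 lower at a log2 fold change of at least 1, 1 and 0 at an adjusted p under 0.01, 12 and 0 with library totals, 11 and 0 with limma on log2(FPKM + 0.1), 9 and 0 with limma on log2(FPKM + 1), 1 and 1 at a mean FPKM of at least 5, 5 higher without a filter, and 1 lower with only the groups compared. Without Tb replicate 5 and DOX replicate 4, a setting chosen after seeing the data, the interaction had 5 above, Tb against Control 0 higher and Tb-DOX against DOX 5 higher. Where no construction explains a change, the cause was not tested.

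With each library left out in turn, DOX against Control had 2 to 5 higher and 11 to 12 lower, Tb-DOX against Tb 2 to 4 higher and 1 to 4 lower, the interaction 2 to 6 above and 0 to 1 below, Tb against Control 0 to 2 higher and 0 to 2 lower, and Tb-DOX against DOX 1 to 5 higher and 0 to 2 lower. The replicate block gave 4 and 11, 3 and 3, 2 and 0, 0 and 0, and 4 and 2 in the same order. Among the genes named, the block added *Kcnd3* (0.59) and *Scn4b* (-1.08) and lost *Kcnk3* (0.45), *Kcng2* (0.50) and *Kcne4* (-1.65) in Tb-DOX against Tb, lost *Kcnrg* (2.03) in the interaction and *Kcnj3* (-0.71) and *Kcne4* (1.61) in Tb against Control, and added *Kcne1* (0.81) in Tb-DOX against DOX. Same-numbered libraries correlated in their deviations from group means at -0.234 to 0.21. Differently numbered libraries were not set beside them, so whether the numbers pair the libraries was not tested. Genes of few counts, such as *Kcnrg* and *Kcnj14*, are limited by depth.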
